A study of Helianthus annuus with 2 samples.

Results

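The regions described here are the wide H3K4me3 intervals of developing sunflower seeds that were called at 13 DAA (days after anthesis) and not at 28 DAA. They were selected on 2 measured values. The interval had to be 350 bp wide or more in the peak list labelled 13 DAA, and it had to overlap no interval of the peak list labelled 28 DAA by 1 bp or more. On the 17 chromosomes, 6200 intervals met this rule, out of 162824 in the list labelled 13 DAA and 285239 in both lists. They are called wide 13 DAA-only regions below. The study mapped H3K4me3 by ChIP-Seq in seeds of the high-oleic mutant line CAS-9 of *Helianthus annuus*, harvested at 28 DAA (late stage of fatty acid synthesis) and at 13 DAA (early stage). Both groups were untreated, came from plants of this line grown in growth chambers, and were precipitated with an antibody against H3K4me3. There was 1 peak list per stage, and how many plants or seeds were pooled for each is not stated in the labels or methods used here. No spread between replicates exists, so every comparison between the stages below sets 1 library beside 1 library and carries no test.

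H3K4me3 is the trimethylation of lysine 4 on the tail of histone H3. It is written by SET-domain methyltransferases while a gene is being transcribed and sits on the nucleosomes just downstream of transcription start sites in plants as in other eukaryotes, so it is widely read as a mark of active promoters. At strongly transcribed genes it often covers several neighbouring nucleosomes, and the peak is then wide. During seed filling the embryo turns from cell division to the storage of oil and protein, with large changes in which genes are transcribed. Gene models of the genome version used by the lists were not used here, so the regions are named by position and not by gene, and no sequence is shown.

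One point on the labels touches every direction given below. The list labelled 28 DAA held 123464 intervals, and 165079 intervals stood in the list labelled 13 DAA. In the study's text these lengths are attached to the opposite stages. The line names inside each file carry the same stage as its label. "13 DAA" and "28 DAA" therefore stand for the labels of the lists throughout. The genome-wide background of MACS2, taken here as the measure of depth, was 143 fragments per 10 kb for 28 DAA and 157 fragments per 10 kb for 13 DAA. It does not measure signal-to-noise. In the study's text, the 13 DAA sample had the lower share of mappable reads. Its normalized strand cross-correlation, a signal-to-noise measure, was also lower, while the relative strand cross-correlation was higher. The study rated both samples as highly enriched. Since the lengths are exchanged in that text, which list these values belong to is not settled here. The list labelled 28 DAA had at least 11 fragments at every summit, the other list at least 10. An interval without a 28 DAA partner thus lacked a call in that library, which does not measure how much of the mark was there.

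The wide 13 DAA-only regions were mostly just above the width limit. Their median width was 407 bp (quartiles 373 and 467 bp), and 95% of them were at most 606 bp wide. A width of 350 to 399 bp was found in 2801 of them (45.2%), 400 to 499 bp in 2355 (38.0%), 500 to 699 bp in 922 (14.9%), 700 to below 1000 bp in 107 and 1000 bp or more in 15. Just inside the limit, 64 regions were exactly 350 bp wide, with a median fold enrichment of 5.65 and a median distance of 18346 bp to the 28 DAA list. Just outside it, 81 unmatched intervals 1 bp narrower had a median fold enrichment of 5.52 and a median distance of 7018 bp. The median distance was 14850 bp at a width of 348 bp and 11238 bp at 351 bp, so no step at the limit is read from these values. On the side of the overlap, 26 of the 6200 regions ended within 50 bp of a 28 DAA interval, while 43 of the 9705 wide 13 DAA intervals that did overlap shared less than 50 bp.

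Of the 15905 wide intervals in the list labelled 13 DAA, the 6200 regions made up 39.0% (95% Wilson interval 38.2 to 39.7%, counting error only). Among all 162824 intervals of this list the share without a 28 DAA overlap was 72.9%. Since the overlap itself chose the regions, nothing is read from these shares. By width, the share without a partner was 51.4% at 350 to 399 bp (50.0 to 52.7%), 41.7% at 400 to 499 bp, 26.4% at 500 to 699 bp, 9.90% at 700 to below 1000 bp and 6.49% from 1000 bp upwards (15 of 231 intervals, 3.97 to 10.4%). A longer interval is also more likely to touch a 28 DAA interval by its length alone.

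The 5 widest regions lay on 5 different chromosomes. The widest extended over 1209 bp on chromosome 4, from 137849315 to 137850523 of the XRQ genome as given in the lists. Its summit at 137850132 held 31 fragments, a fold enrichment of 5.62 over the local background (95% Poisson interval of the fragments 3.88 to 7.91), and the nearest 28 DAA interval began 1938 bp further on. The second, 1192 bp on chromosome 17 from 189494486 to 189495677, differed from the others, with 128 fragments at the summit but a fold enrichment of only 2.78 (2.33 to 3.30) over a local background of 3385 fragments per 10 kb. The third covered 1184 bp on chromosome 16 from 140764515 to 140765698, with 32 fragments and a fold of 6.03 (4.18 to 8.43). The fourth covered 1144 bp on chromosome 12 from 106873146 to 106874289, with 34 fragments and a fold of 6.01 (4.21 to 8.33). The fifth covered 1139 bp on chromosome 3 from 87142677 to 87143815, with 23 fragments, a fold of 6.55 (4.25 to 9.69) and no 28 DAA interval closer than 40422 bp. Apart from the region on chromosome 17, the folds of these wide stretches had overlapping intervals. They stood between percentiles 66.6 and 84.5 of the list labelled 13 DAA. None of the 5 widest was among the 5 regions of highest fold. Over the classes of width given above, in rising order, the median fold of the regions was 5.53, 5.68, 5.81, 5.71 and 5.83.

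The fold enrichment, the ratio of fragments at the summit to those expected from the local background as MACS2 gives it, had a median of 5.63 over the wide 13 DAA-only regions (quartiles 4.83 and 6.70, range 1.56 to 15.8). The whole number of fragments at the summit, solved from the deposited fold and p-value, had a median of 23 (quartiles 19 and 28, range 11 to 134). Wide 13 DAA intervals that overlapped the 28 DAA list had a median fold of 6.86 and 32 fragments, and unmatched 13 DAA intervals under 350 bp had a median fold of 4.86 and 18 fragments. The regions therefore stood between these neighbours of the same library on both measures. The order by fold relative to the overlapping intervals was the same within each class of width. At 350 to 399 bp the medians were 5.53 for the wide 13 DAA-only regions and 6.75 for the overlapping intervals, at 400 to 499 bp 5.68 and 6.81, at 500 to 699 bp 5.81 and 7.01, and from 700 to below 1000 bp 5.71 and 7.16. These are values of the contrast that chose the regions, so they are a description and not a test.

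**Figure D1:**
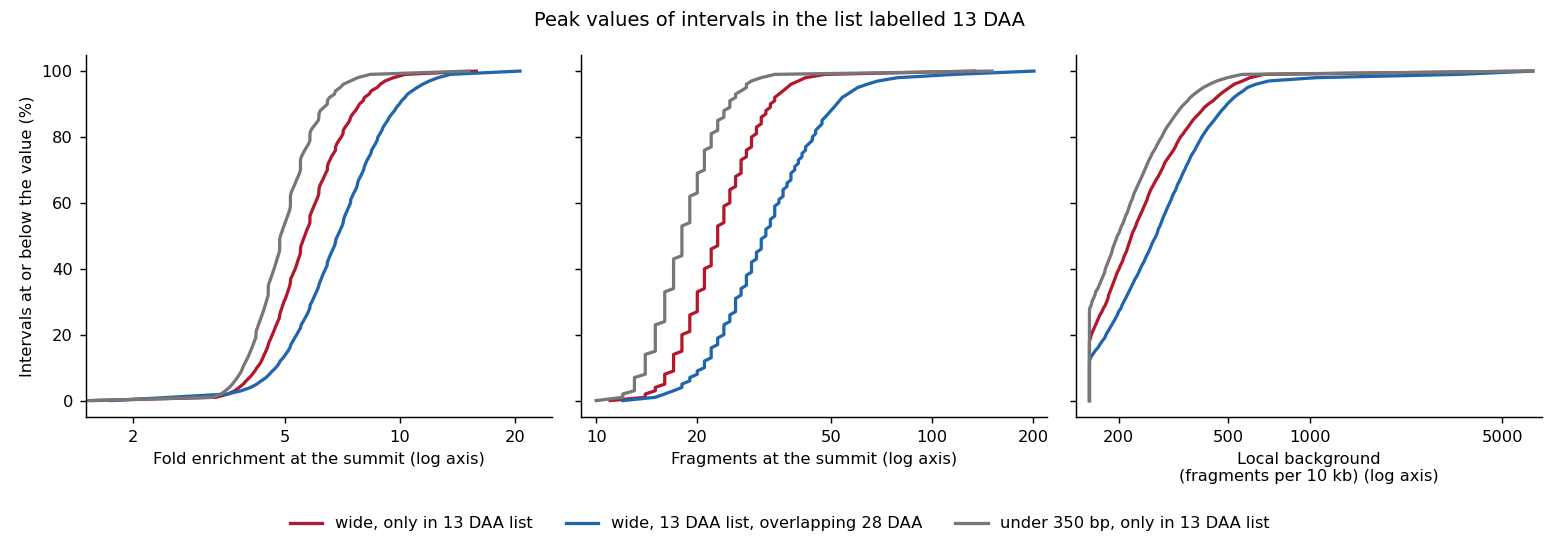
Cumulative curves of the fold enrichment, the fragments at the summit and the local background (fragments per 10 kb), all on log axes, for 3 sets of intervals in the list labelled 13 DAA; the y axis is the percentage of each set at or below a value. The curve of the 6200 wide 13 DAA-only regions lies between those of the other sets over most of its course in all 3 panels, with medians of 5.63, 23 and 223.

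The calls themselves ranged widely in strength. The weakest, on chromosome 14, had a q-value of 0.000187, while 2935 regions (47.3%) had a q-value of at most 1e-10. At that limit stood 81.8% of the overlapping wide intervals, 14.0% of the unmatched narrow ones and 24.9% of the whole list labelled 13 DAA. A q-value of at most 1e-20 was reached by 263 regions (4.24%), against 31.5% of the overlapping wide intervals and 3.49% of the whole list. More than 50 fragments were found at 54 summits (0.871%, 0.668 to 1.13%). The share was 1.08% over the whole list labelled 13 DAA, so that of the regions was near it. Over the whole list labelled 28 DAA it was 42.7%. It was 11.5% for the overlapping wide intervals and 65.0% for the 22009 wide intervals seen only in the list labelled 28 DAA. The last set, called the mirror set because the same rule was applied with the lists exchanged, also had higher medians of fold (7.23), fragments (63) and width (482 bp). The whole lists differed in the same direction. Their medians were 5.91 at 28 DAA and 5.15 at 13 DAA for the fold, 43 and 19 for the fragments, and 282 and 187 bp for the width. The shortest interval was 161 bp at 28 DAA and 134 bp at 13 DAA, so a limit of 350 bp was not equally strict in both. Whether these differences between the lists belong to the stages or to the libraries cannot be told apart with 1 library per stage.

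The 5 regions of highest fold were 432 to 600 bp wide, all above the median width of the regions (407 bp). Among all regions with a fold above 10 the median width was 414 bp, only slightly higher. On chromosome 6, a region of 600 bp from 103593628 to 103594227 had a fold enrichment of 15.8 (11.9 to 20.7) with 52 fragments at its summit. It lay at 99.7% of the chromosome's length, and a 28 DAA interval of nearly as high a fold (13.0 with 64 fragments, from 103595858 to 103596306) began 1631 bp behind it. On chromosome 15, a region from 170211602 to 170212033 had a fold of 13.6 (9.82 to 18.3) and 41 fragments, also close to the chromosome end at 99.4% of its length. It was surrounded by 20 intervals of the 28 DAA list within 50 kb on either side, none of which touched it. On chromosome 13, the region from 165121574 to 165122032 had a fold of 12.9 (9.45 to 17.3), and on chromosome 11 the region from 122974263 to 122974821 had 12.8 (9.40 to 17.1). The region on chromosome 12 from 78360003 to 78360466, with a fold of 12.9 (9.27 to 17.5) and 39 fragments, was the remote one of the 5, with the nearest 28 DAA interval 100108 bp away. All 5 stood above percentile 99.8 of the list labelled 13 DAA, and their Poisson intervals overlapped, so their order among themselves is not resolved. Folds above 10 were found in 91 regions (1.47%), near the 1.33% of the whole list labelled 13 DAA. Among the overlapping wide intervals the share was 9.83%.

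The regions with the most fragments were different ones. On chromosome 14 from 2698680 to 2699171, 134 fragments gave a fold of only 1.83, and on chromosome 12 from 161870232 to 161870592, 133 fragments gave 1.56, the lowest fold of all regions. The next were on chromosome 3 from 1309297 to 1309702 (131 fragments, fold 1.72) and on chromosome 13 from 5518029 to 5518416 (128 fragments, fold 2.67), followed by the region on chromosome 17 named above. In each the local background was above 3000 fragments per 10 kb, from 3385 on chromosome 17 to 6323 on chromosome 12. In total 41 regions (0.661%, against 0.477% of the whole list labelled 13 DAA) had a fold below 3, 36 of them with more than 50 fragments. The median local background of the 41 was 3884 fragments per 10 kb, against 223 over all regions. The 28 DAA intervals nearest to them also stood on a deep background, with a median of 2269 fragments per 10 kb and a fold of 2.16. These 41 regions lay on 12 chromosomes, 15 of them on chromosome 12, where the single megabase from 161 to 162 held 9. Leaving all 41 out changed the median fold only to 5.65. Of the 54 summits with more than 50 fragments, 18 had a fold of 3 or more.

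The local background around the regions, with a median of 223 fragments per 10 kb, was above that of the unmatched narrow intervals (198) and below that of the overlapping wide ones (274). The smallest background that MACS2 allows, that of the whole genome, applied to 1124 regions (18.1%, 17.2 to 19.1%), against 12.6% of the overlapping wide intervals, 27.4% of the unmatched narrow ones and 26.8% of the whole list. It became less frequent with width, from 22.2% of the regions of 350 to 399 bp to 11.2% of those of 500 to 699 bp, while the median local background over the same classes was 208 and 250.5 fragments per 10 kb. A high background and a wide interval thus went together among the regions. Above the genome-wide value, this background came out as whole fragments per 10 kb, and no input control is named. It is therefore taken as a count in the precipitated library itself, which includes the fragments of the region. A wide region or a close neighbour can raise it by that alone, here and below. How much of the link with width comes from this was not tested.

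Within the regions the summit tended to lie off centre. In 2008 regions (32.4%, 31.2 to 33.6%) the summit fell between 20 and 40% of the width and in 1941 (31.3%, 30.2 to 32.5%) between 60 and 80%, while only 1140 (18.4%, 17.4 to 19.4%) had it in the central 20%, from 40 to 60%. These shares of the left and right flank overlapped in their intervals, but the outermost 20% held the summit more often on the left (9.95%, 9.23 to 10.7%) than on the right (7.97%, 7.32 to 8.67%). The other sets had the same difference, with 8.84 and 7.25% in the overlapping wide intervals, 5.36 and 3.27% in the unmatched narrow ones and 5.93 and 4.97% in the wide intervals seen only at 28 DAA. In the overlapping wide intervals the central share was 23.3%, and in the unmatched narrow intervals it was 43.0%, where it was the most frequent position. The median distance from the summit to the nearer end of the region was 119 bp (quartiles 95 and 156 bp). For comparison, the shortest interval of this list, which reflects the fragment length, was 134 bp. Of the 5 widest regions, those on chromosomes 16 and 3 had their summits at 89.4 and 91.7% of the width, and that on chromosome 12 near the centre, at 51.3%.

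**Figure D2:**
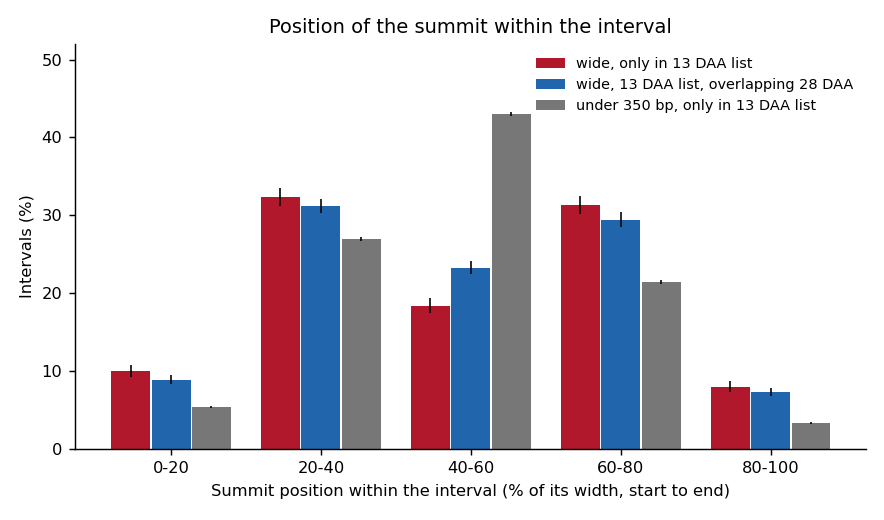
Position of the summit within the interval, as a percentage of its width, for 3 sets of intervals in the list labelled 13 DAA; bars are the percentage of each set and error bars are 95% Wilson intervals. The wide 13 DAA-only regions have 32.4 and 31.3% on the flanks against 18.4% in the centre, whereas 43.0% of the unmatched intervals under 350 bp have a central summit.

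The regions were rarely at the edge of a 28 DAA interval. The distance between a region and the nearest 28 DAA interval, where touching intervals have a distance of 1 bp, had a median of 9978.5 bp (95% interval of the median 9402 to 10484 bp, quartiles 3175 and 25352 bp). Only 57 regions (0.919%) had a 28 DAA interval within 100 bp and 584 (9.42%, 8.72 to 10.2%) within 1 kb. Within 10 kb there was one for 3102 regions (50.0%). None lay within 100 kb for 164 regions (2.65%, 2.27 to 3.07%), against 3.46% of the whole list labelled 13 DAA. Unmatched 13 DAA intervals under 350 bp were farther away, with a median of 14318 bp and 6.42% within 1 kb. The wide intervals seen only in the list labelled 28 DAA were closer to the other list, with a median of 4333 bp and 20.7% within 1 kb. This distance also depends on how many intervals the other list has to offer, 122415 on the chromosomes for the regions and 162824 for the mirror set. The nearest 28 DAA interval lay on the side of lower coordinates for 50.0% of the regions.

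**Figure D3:**
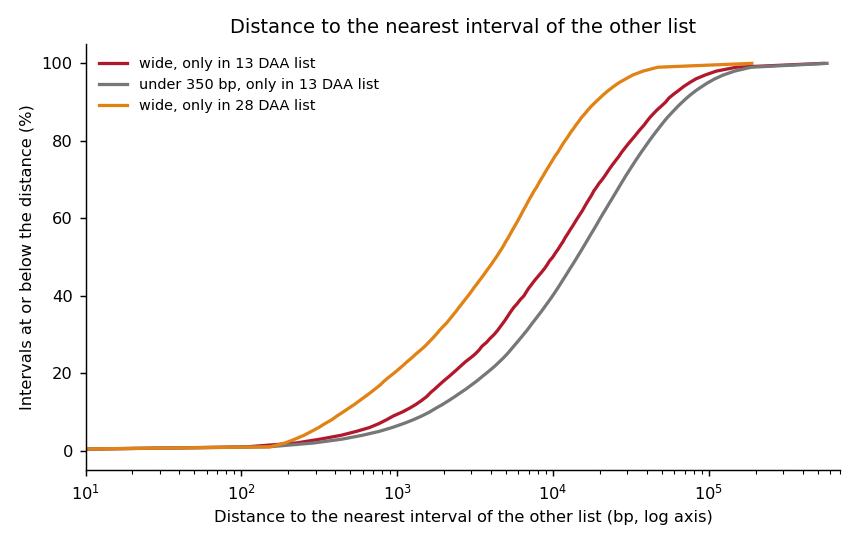
Cumulative curves of the distance to the nearest interval of the other list (bp, log axis); the y axis is the percentage of each set at or below a distance. The wide 13 DAA-only regions have their median at 9978.5 bp, below the unmatched 13 DAA intervals under 350 bp (14318 bp) and above the wide intervals seen only at 28 DAA (4333 bp).

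Among the regions, those close to a 28 DAA interval were somewhat wider and lay in a denser background. At distances of up to 100 bp the median width was 450 bp and the local background 291 fragments per 10 kb. Beyond that and up to 1 kb these medians were 426 bp and 277, up to 10 kb 411 bp and 225, up to 100 kb 401 bp and 215, and beyond 100 kb 406.5 bp and 199. The fold did not follow the same course, with medians of 5.15, 5.36, 5.79, 5.56 and 5.58 in the same order of distances. Read by width, 7.50% of the regions of 350 to 399 bp and 14.0% of those of 500 to 699 bp had a 28 DAA interval within 1 kb. The 28 DAA interval nearest to a region overlapped some other 13 DAA interval in 34.9% of the cases (33.7 to 36.1%), and in 34.9% for the unmatched narrow intervals. Of all 28 DAA intervals 66.4% overlapped no 13 DAA interval, so these shares are near that of the whole list, and nothing is read from them about where the regions lie. These nearest 28 DAA intervals had a median width of 267 bp, a fold of 6.04 and 34 fragments, against 269 bp, 6.06 and 33 for the neighbours of the unmatched narrow intervals.

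The 5 nearest regions missed a 28 DAA interval by a few bases. On chromosome 13 the region from 156463983 to 156464510, with a fold of 5.02 and 26 fragments, began 2 bp after a 28 DAA interval that ended at 156463981 and had a fold of 4.36 and 23 fragments. On chromosome 2 the region from 3145521 to 3145985 (fold 4.92) lay 5 bp before a 28 DAA interval of 249 bp. On chromosomes 8, from 56327732 to 56328482, and 14, from 159579034 to 159579402, the distance was 7 bp each, with folds of 5.91 and 4.02. On chromosome 11, from 95078710 to 95079177, it was 8 bp, with a fold of 4.88. In these places the mark was thus called at both stages side by side, and the rule counts them as 13 DAA only by the position of an interval end.

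The 5 most distant regions lay in stretches with no 28 DAA interval within 50 kb. The farthest was on chromosome 6, from 48135313 to 48135800, 543715 bp from the next 28 DAA interval, with a fold of 3.89 (2.48 to 5.86) and 21 fragments. On chromosome 9, the region from 99459140 to 99459554 was 441712 bp away and had a fold of 5.27 (3.35 to 7.93). On chromosome 8, the region from 72820394 to 72821028 was 406373 bp away with 43 fragments and a fold of 5.66 (4.14 to 7.59), the most fragments of these 5. On chromosome 4, the region from 108875833 to 108876197 was 379243 bp away, with a fold of 4.15 (2.55 to 6.43). On chromosome 7, the region from 35657199 to 35657732 was 373847 bp away and had the highest fold of the 5, 7.14 (4.79 to 10.3), with 9 other 13 DAA intervals within 50 kb on either side. Each of them had between 2 and 9 other 13 DAA intervals in that range. Over all regions, 684 (11.0%, 10.3 to 11.8%) had no 28 DAA interval within 50 kb, against 15.8% of the unmatched narrow intervals. The share was 11.4% over the whole list labelled 13 DAA, so that of the regions was near it.

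Seen from their own list, the regions were not isolated. A median of 6 other 13 DAA intervals and 4 intervals of the 28 DAA list had their centres within 50 kb. Another 13 DAA interval lay within 1 kb of 17.2% of the regions (16.2 to 18.1%) and within 10 kb of 70.7%. For the overlapping wide intervals these shares were 37.0 and 81.3%, and for the unmatched narrow ones 14.5 and 67.0%. Over the whole list labelled 13 DAA they were 20.3 and 71.2%. The regions were thus below the general share at 1 kb and near it at 10 kb, so this closeness is not particular to them. A 13 DAA interval that was shared with the 28 DAA list lay within 1 kb of 239 regions (3.85%) and within 10 kb of 1631 (26.3%).

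The regions seldom stood next to each other. When regions no more than 10 kb apart were joined, 5708 (92.1%) were alone, 450 formed 225 pairs and 42 formed 14 clusters of 3, the most that occurred. Another region within 10 kb was thus found for 492 (7.94%, 7.29 to 8.63%). The same joining placed 19.1% of the 9705 overlapping wide intervals next to another of their set, with up to 8 in a cluster. It placed 33.8% of the 22009 wide intervals seen only in the list labelled 28 DAA next to another, with up to 6. Larger sets give closer neighbours, so these shares also follow the number of intervals. Regions in pairs had a median of 27 fragments and a local background of 258.5 fragments per 10 kb, against 23 and 220 for those alone, and the median fold was 5.93 against 5.61. The local background of a region in a pair can also count fragments of the other region.

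The 3 clusters with the shortest span among the 14 differed in kind. On chromosome 13, 3 regions followed each other within 1492 bp from 5518029 to 5519520, with 128, 101 and 118 fragments on a deep local background and folds of only 1.97 to 2.67. A 28 DAA interval with the same low fold (1.99) began 467 bp behind them, overlapping a 13 DAA interval of 287 bp. On chromosome 6, 3 regions lay within 3766 bp from 13770476 to 13774241, with folds of 5.46, 4.04 and 3.80, and the nearest 28 DAA interval was 16179 bp away. On chromosome 3, 3 regions lay within 6829 bp from 149675996 to 149682824, with 35, 22 and 37 fragments, folds of 5.11, 4.57 and 7.67, and no 28 DAA interval closer than 13320 bp. The most remote cluster, on chromosome 6 from 69092998 to 69106935, was 125619 bp from the 28 DAA list, and a cluster on chromosome 5 from 92952138 to 92961104 was 81015 bp from it. In 11 of the 14 clusters the span of the cluster held no 28 DAA interval. The spans were only 1492 to 16145 bp long and the regions in them overlap no 28 DAA interval by the rule, so nothing is read from this count.

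**Figure D4:**
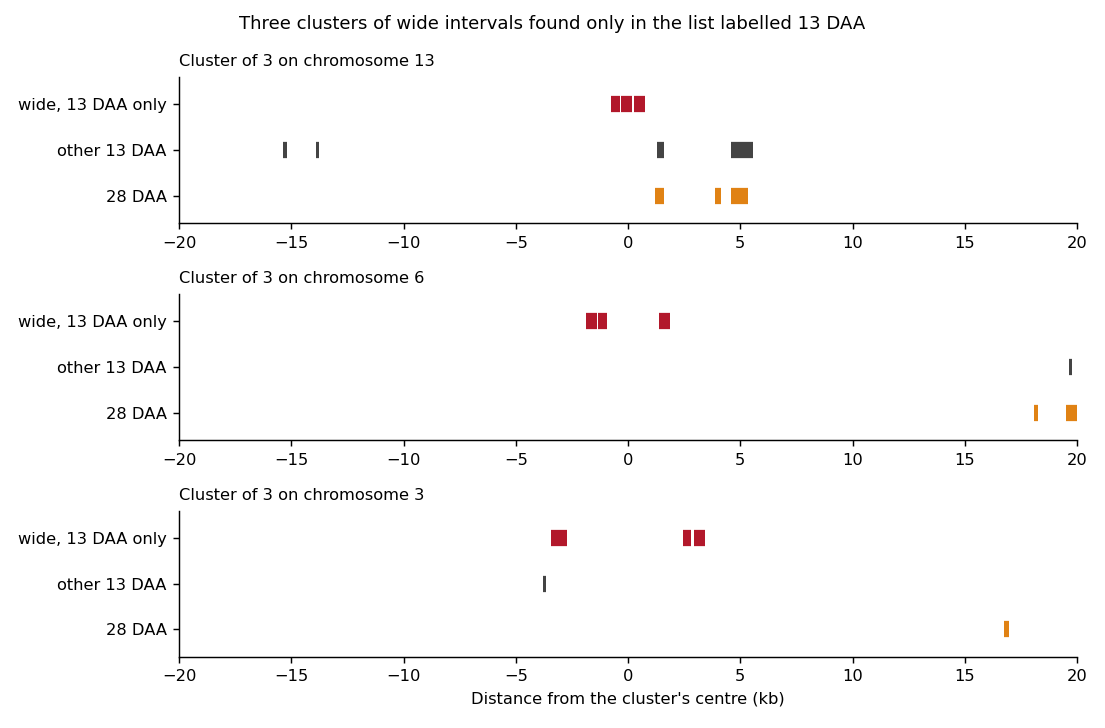
Maps of the 3 tightest clusters of wide 13 DAA-only regions, with the distance from the cluster's centre in kb on the x axis and 1 row each for the regions, the other 13 DAA intervals and the 28 DAA intervals; bars are drawn to scale. On chromosome 13 the 28 DAA list begins 467 bp from the regions, while on chromosomes 6 and 3 it is 16179 and 13320 bp away.

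All 17 chromosomes carried wide 13 DAA-only regions, from 214 on chromosome 6 to 473 on chromosome 10. With the chromosome length approximated by the end of the last interval, the density was highest on chromosome 14, at 2.49 regions per Mb (95% Poisson interval 2.26 to 2.74), and next on chromosome 15, at 2.39 (2.16 to 2.63). The lowest densities were found on chromosome 2, at 1.79 (1.60 to 1.99), chromosome 16, at 1.81 (1.63 to 2.02), and chromosome 5, at 1.83 (1.66 to 2.02). The median was 2.08. The intervals of chromosomes 14 and 15 overlapped each other, as did those of chromosomes 2, 16 and 5, but the upper and lower ends of the order did not overlap. The highest density was 1.40 times the lowest (1.21 to 1.62, counting error only). These chromosomes were picked as the extremes of 17, which the intervals ignore. Whether counting error alone would give such extremes was not tested, and the same holds for the extremes of chromosomes below. The ratio of highest to lowest density was 1.67 for the overlapping wide intervals and 1.41 for the wide intervals seen only at 28 DAA. It was 1.40 for all 28 DAA intervals and 1.22 for all 13 DAA intervals, so that of the regions was within the range of the other sets.

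Part of this order followed the number of intervals as such. Across the 17 chromosomes the density of the regions went with that of all 13 DAA intervals (Pearson's r = 0.90, Spearman's rho = 0.87) and with that of 28 DAA intervals (r = 0.78, rho = 0.70). These correlations describe 17 chromosomes of the same 2 libraries, and the regions are themselves counted among the 13 DAA intervals. As a share of the 13 DAA intervals of a chromosome, the regions made up between 3.41% on chromosome 16 (3.07 to 3.78%) and 4.22% on chromosome 14 (3.85 to 4.63%), with a median of 3.81%. As a share of the wide 13 DAA intervals they made up between 35.6% on chromosome 6 and 41.8% on chromosome 13. Chromosome 2, the poorest per Mb, was near the top by this count, with 41.7%.

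The properties of the regions hardly differed between chromosomes. Median widths ranged from 400 bp on chromosome 5 to 414 bp on chromosome 6, median folds from 5.37 on chromosome 12 to 5.81 on chromosomes 10 and 11, and median fragment numbers from 22 to 24. The distance to the 28 DAA list varied more, from 8555 bp on chromosome 11 (7254 to 10531 bp) to 12973 bp on chromosome 2 (11172 to 15399 bp), where the 28 DAA list had its lowest density. Chromosome 2 also had the largest share of regions with no 28 DAA interval within 100 kb, 5.26%, against 0.872% on chromosome 11. The share of regions with another region within 10 kb ranged from 3.13% on chromosome 9 to 11.3% on chromosome 14.

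**Figure D5:**
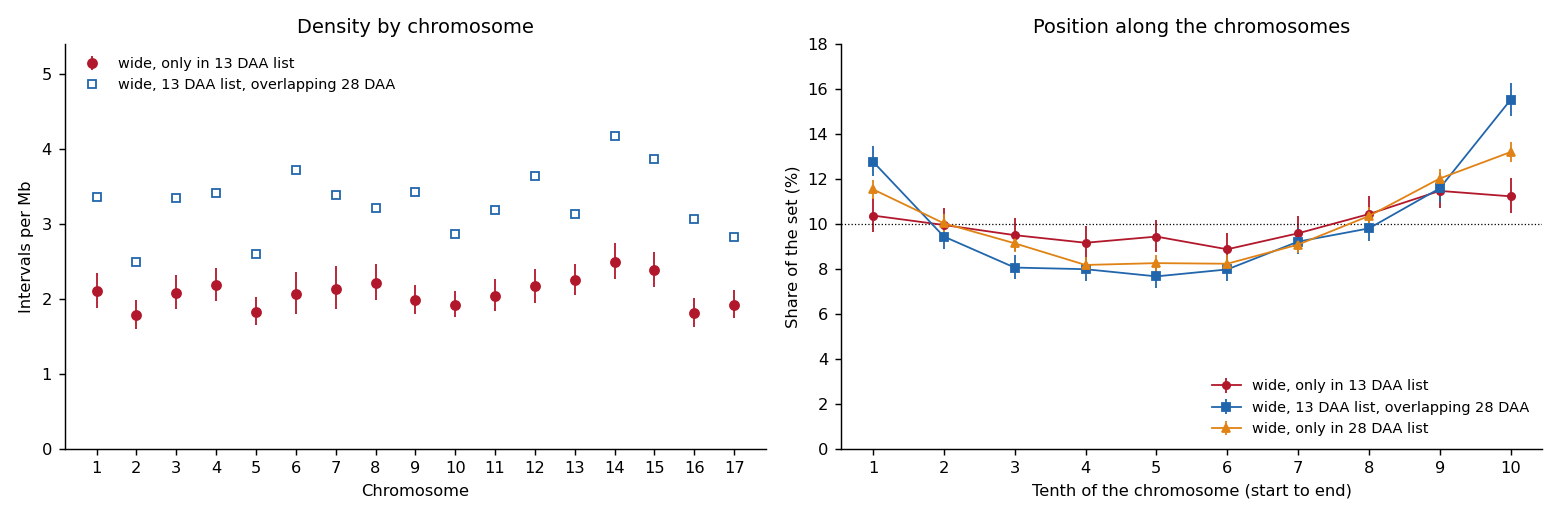
The left panel gives intervals per Mb on each chromosome, with 95% Poisson intervals for the wide 13 DAA-only regions, and the right panel the percentage of each set in each of 10 equal parts of the chromosomes, with 95% Wilson intervals and a dotted line at the even share of 10%. The regions range from 1.79 to 2.49 per Mb and from 8.87 to 11.5% per part, a flatter course than that of the wide intervals that overlap the 28 DAA list. The rule that separates these sets itself shapes this contrast.

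Along the chromosomes the regions were spread more evenly than the other wide sets, but less evenly than the unmatched narrow intervals. Their course was close to that of the whole list labelled 13 DAA. When each chromosome was divided into 10 equal parts, the share of the regions was between 8.87% in the sixth (8.19 to 9.60%) and 11.5% in the ninth (10.7 to 12.3%), with 10.4% in the first and 11.2% in the last. The overlapping wide intervals ranged from 7.67% in the fifth to 15.5% in the last, and the wide intervals seen only in the list labelled 28 DAA from 8.17 to 13.2%. The unmatched narrow intervals stayed between 9.63 and 10.4%. The whole list labelled 13 DAA ranged from 9.35% in the third to 11.5% in the last, so an even spread is not particular to the regions. In the outer 5 Mb of the chromosomes, which make up 5.67% of the length, lay 390 regions (6.29%, 5.71 to 6.92%). Of the overlapping wide intervals 10.3% lay there, and of the wide intervals seen only in the list labelled 28 DAA 8.24%, while the unmatched narrow intervals had 5.66% there. The central 20% of the chromosomes held 18.3% of the regions (17.4 to 19.3%), against 15.6 and 16.5% of these wide sets, and 22494 of the 112525 unmatched narrow intervals lay there, the highest share of these 4 sets. The Wilson intervals of the regions did not overlap those of the overlapping wide intervals in either part. The rule that separates these sets itself shapes this contrast, since an overlapping interval needs a 28 DAA interval in its place. The whole list labelled 28 DAA had 11.9 and 14.1% in the outermost of the 10 parts and 8.04 and 8.14% in those at the centre. The contrast is therefore a description and not a test.

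In windows of 1 Mb the regions numbered 2.07 on average over 2990 windows, and 472 windows (15.8%) had none. Most windows held 1 (764), 2 (770) or 3 (482), and 19 held 8 or 9. The variance over the mean was 1.27, against 2.24 for the overlapping wide intervals, 2.53 for the wide intervals seen only in the list labelled 28 DAA and 1.86 for the unmatched narrow intervals, so the regions had the lowest ratio of these 4 sets. The ratio can also grow with the number of intervals per window. The 6 windows with 9 regions were on chromosome 3 (134 to 135 Mb), chromosome 8 (17 to 18 and 109 to 110 Mb), chromosome 12 (161 to 162 Mb), chromosome 14 (137 to 138 Mb) and chromosome 16 (164 to 165 Mb). On chromosome 12 all 9 regions had a fold below 3, in the stretch of deep background described above, where the 13 DAA intervals had a median of 4100 fragments per 10 kb. The window on chromosome 8 from 109 to 110 Mb stood apart in another way, with 9 regions among 55 13 DAA intervals and only 28 of the 28 DAA list, and 1 wide interval that overlapped.

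The number of regions in a window was also set beside that of 28 DAA intervals. An overlapping wide interval needs a 28 DAA interval in its place and a region needs its absence, so the rule itself shapes how both counts follow the 28 DAA list, and the values are a description. In the 84 windows with fewer than 10 intervals of the 28 DAA list there were 1.18 regions on average, beside 0.464 overlapping wide intervals. In the 1232 windows with 20 to below 40 there were 1.83 and 2.28, and in the 146 windows with 80 or more there were 2.89 and 8.08. Taken per 13 DAA interval, the regions were nearly constant, at 3.55% in the windows poorest in 28 DAA intervals, 3.74% in those with 20 to below 40, 4.08% in those with 60 to below 80 and 3.55% in the richest. Among the wide 13 DAA intervals of these windows, the regions made up 71.7% in the poorest and 26.3% in the richest.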

How the data were processed

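ChIP-Seq of H3K4me3 was performed by the authors with 1 library per stage. Reads were filtered with FASTX-Toolkit, aligned with BWA-MEM to the XRQ genome and freed of duplicates with Picard, and peaks were called with MACS2 for each stage. No input control is named in the labels or methods used here. Per peak, the authors deposited the interval, its summit, the fold enrichment (a ratio), the −log10 p-value, the −log10 q-value and a score. Positions were converted to count from 1.

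Regions, distances, clusters and densities were computed with Python 3.11.15, numpy 2.4.6, scipy 1.17.1 and pandas 2.3.3, and plotted with matplotlib 3.10.9. Summit fragments were solved from fold and p-value with a pseudocount of 1 (tolerance 0.001 on −log10 p), which succeeded for 100% of the intervals, and the background was scaled to 10 kb with the shortest interval of each list. Intervals of medians are order-statistic intervals at 95%. The functions were tested on simulated data. No test between stages was made. The rule for the regions and the kinds of summary were chosen with earlier results of these data known. Named regions are the 5 widest, of highest fold, with most fragments, farthest and nearest, and the 3 largest clusters. As 14 clusters tied, the shortest spans were taken, a choice made after the values were seen, as were the 2 remote clusters and the windows of 1 Mb that are named. Depth limits precision to the Poisson error of the summit fragments. No gene annotation of the lists' genome build was used, so genes were not analysed here.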

Additional observations from a re-analysis of the deposited data

Results flagged for a closer look

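The rule was applied to the chromosomes only. On the unplaced sequences of the assembly, which were kept out of the comparisons, 98 of the 424 wide 13 DAA intervals also lacked a 28 DAA overlap (23.1%), on 92 sequences, and 40 of them lay on a sequence with no 28 DAA interval at all. Their median fold enrichment was 4.67 (range 1.63 to 9.03). They drew attention as signal in data that the report does not use. The plastid and the mitochondrial sequence had 1 such interval each, with folds of 2.29 and 2.75.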

How the results depend on the processing

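Of the planned comparisons, 27 values left their counting interval (numbers of regions: a factor of 1.5) and 16 did not. Of these 16, 7 came from the p-value limit of 1e-05. All regions passed this limit and no value changed, so nothing is read from it about stability, and 9 remain. With a width of 300 bp or more there were 11895 regions, 46.5% of the wide intervals, with a median distance of 11048 bp, 8.45% within 1 kb, 11.7% near another region and a median fold of 5.49. With 500 bp or more these values were 1044, 21.8%, 7517.5 bp, 14.4%, 3.16% and 5.81, and the ratio of chromosome densities was 1.94. When both lists were limited to q-values up to 1e-10 they were 4081, 37.5%, 11729 bp, 8.16%, 9.29% and 6.73. With this limit in the 13 DAA list only, an alternative added after the data had been seen, there were 2935 regions, 27.0% of the wide intervals, at 8000 bp, with 6.85% near another and a fold of 6.78. When only an overlap of 50% of the 13 DAA interval counted as shared, the share was 48.3%, the distance 5931 bp, with 26.9% within 1 kb and 9.97% near another region. When gaps of up to 1000 bp also counted, the share was 35.3% and the distance 11882.5 bp, and the share within 1 kb has no value. Regions linked at gaps of up to 1 kb or 100 kb were 1.34% and 41.0%. Chromosome lengths of a reference genome were not run, since none of this build was used. No paired analysis was possible because each stage had only 1 library.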
